A study of Homo sapiens with 12 samples.

Results

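RB1, the retinoblastoma protein gene, and 9 genes that act with it at the entry to S phase were followed through depletion of the SAFB family. The set held the pocket proteins RB1, RBL1 (p107) and RBL2 (p130), the transcription factors E2F1, E2F2, E2F3 and E2F4, and the G1 regulators CCND1 (cyclin D1), CCNE1 (cyclin E1) and CDK4. It was put together by function around RB1, which the study names as host of a transposable element, and each gene was read from its own row in every library. These are 10 of 58780 gene IDs, and all 10 were among the 26688 genes that passed the filter of 10 counts summed over the libraries.

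Poly(A)+ RNA was sequenced from HEK293 Flp-In T-REx cells, a human embryonic kidney line, in 4 groups of 3 libraries that the series calls biological replicates. Triple KD cells received siRNAs against SAFB (SAFB1), SAFB2 and SLTM together. SAFB1 KD and SLTM KD cells received the siRNA against that gene alone, topped up with negative control siRNA, and the controls received control siRNA, the amount of which is not given. A knockdown of SAFB2 alone was not analysed here. All libraries come from this 1 line, in which the adenoviral E1A protein, known to bind pocket proteins, is part of the background of the controls too, and RNA levels do not measure how much pocket protein is free.

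Pocket proteins bind E2F factors at promoters of S-phase genes and hold those genes down in G1. Cyclin D with CDK4 or CDK6, and then cyclin E with CDK2, phosphorylate the pocket proteins and release E2F. RB1 binds mainly the activators E2F1, E2F2 and E2F3, whereas RBL1 and RBL2 bind mainly E2F4 and E2F5 and join the MuvB proteins in the DREAM complex of resting cells. SAFB proteins are nuclear RNA-binding proteins that associate with purine-rich RNA.

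The sense strands of the 3 siRNAs are shown because every comparison rests on them. The capitals mark bases 12 to 18, which pair with the seed of the guide strand, and the trailing tt is the overhang.
SAFB siRNA: ggaccaagaugAUCAGAAatt
SAFB2 siRNA: ggacggucgugAUGGAUAatt
SLTM siRNA: gcauuagaauaAUUCGUGatt
The paired 19 bases lie in coding exon 12 of SAFB (chr19:5654145-5654163, plus strand, GRCh38), coding exon 13 of SAFB2 (chr19:5598848-5598866, minus strand) and coding exon 15 of SLTM (chr15:58890402-58890420, minus strand). Within the last 1000 bases of the longest coding transcript of each of 17980 genes, the capital word of the SAFB siRNA occurred in 9.86% of genes, that of the SAFB2 siRNA in 5.57% and that of the SLTM siRNA in 1.2%. E2F1 alone among the members held a word, that of the SAFB2 siRNA, and RB1 held none.

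The siRNAs lowered their targets. SAFB averaged 38.2 CPM (counts per 1000000 counts of the library) in triple KD, 45.3 CPM in SAFB1 KD, 236 CPM in SLTM KD and 232 CPM in control. SLTM averaged 25 CPM in triple KD, 139 CPM in SAFB1 KD, 20.5 CPM in SLTM KD and 116 CPM in control. SAFB2 averaged 29.1 CPM in triple KD, 209 CPM in SAFB1 KD, 140 CPM in SLTM KD and 126 CPM in control, so it was above control where SAFB or SLTM alone was lowered. Depth ran from 56856228 to 75533510 counts per library, and the members had between 1807 and 19205 counts in each. Of 6 genes listed for the neural and renal character of HEK293, 5 fell in triple KD and INA rose (log2 fold change 0.26). Among those that fell were NEFL (-0.41) and GATA3 (-0.42). Of all genes tested, 20.9% were called lower and 19.4% higher in triple KD. The summed level of the 6 genes was 241 to 245 CPM in triple KD and 287 to 293 CPM in control. In SAFB1 KD these genes summed to 318 to 328 CPM, above control, and in SLTM KD to 276 to 284 CPM. The part of these genes in the member results was not tested. All 6 leukocyte and all 6 squamous markers were under 1 CPM in every group. Of 6 colon markers 5 were under 1 CPM in every group, and of 6 fibroblast markers 4 were. The exceptions were CDX2 (29.7 CPM in triple KD and 28.7 CPM in control), COL1A1 (11.9 CPM in triple KD and 12.9 CPM in control) and COL3A1 (2.34 CPM in triple KD and 1.66 CPM in control). The presence of CDX2, COL1A1 and COL3A1 alone did not separate HEK293 from colon or fibroblast cells.

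RB1 mRNA fell in triple KD to 37.4% of the control mean, the only member to change by more than 2-fold. The triple KD libraries stood at 55.2, 54.1 and 54 CPM. SAFB1 KD libraries held 127, 126 and 118 CPM. SLTM KD libraries held 140, 144 and 132 CPM, and control libraries 146, 147 and 144 CPM. Thus no triple KD library came near any other library, SAFB1 KD lay below control without overlap, and SLTM KD overlapped control. The log2 fold change was -1.42 (SE 0.0281, edgeR quasi-likelihood test over all genes, adjusted p = 4.1e-47) in triple KD and -0.23 (SE 0.0261, adjusted p = 3.04e-10) in SAFB1 KD. In SLTM KD it was -0.07 (SE 0.0259), which missed the threshold of 0.05 (adjusted p = 0.0853), although the fit with the replicate number as a block (adjusted p = 0.0118), the fit without a filter on low counts (adjusted p = 0.0194) and the fit without SLTM KD replicate 2 (-0.10, adjusted p = 0.0114) called it. Over all 20 alternatives the adjusted p for RB1 in SLTM KD ran from 0.0114 to 0.451. In this line, fewer cells that express a gene and less RNA per cell cannot be told apart.

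**Figure D1:**
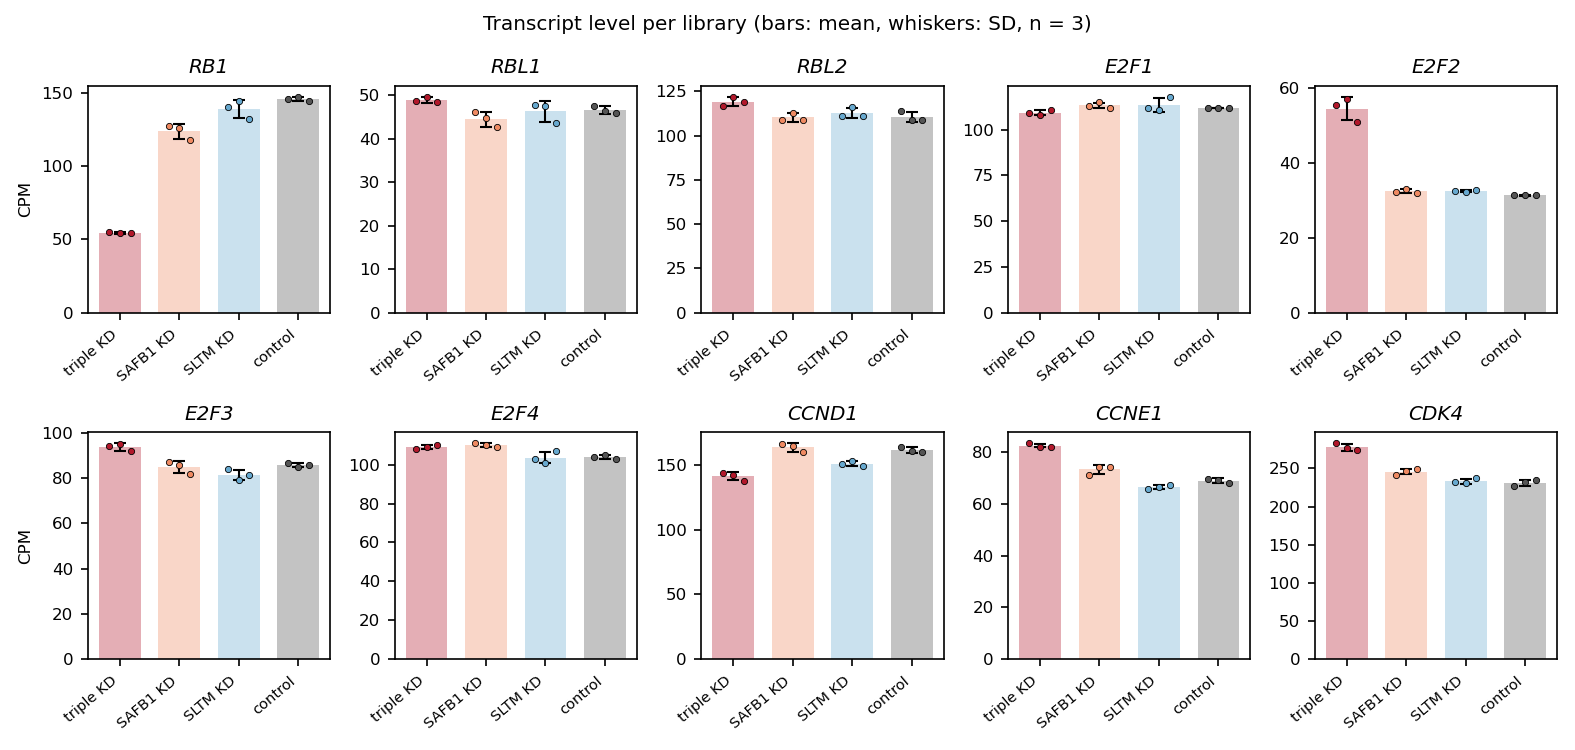
CPM of the 10 members (y axis, from 0) in triple KD, SAFB1 KD, SLTM KD and control (x axis), with a point per library, bars for the mean and whiskers for the SD of 3 libraries. RB1 is low and E2F2 is high in triple KD, whereas no other member lies outside 87.3% to 120% of its control mean there.

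The single knockdowns did not add up to the triple KD. The SAFB1 KD and SLTM KD changes of RB1 sum to -0.30 on the log2 scale, which would leave 81.2% of control, and the triple KD lay -1.12 (SE 0.0385, adjusted p = 2.56e-33) beyond that sum. SAFB2 was lowered in triple KD only, so its share of this departure cannot be told apart from a joint effect. SAFB2 averaged 209 CPM in SAFB1 KD and 140 CPM in SLTM KD, against 126 CPM in control. The sum therefore includes any effect of those higher levels, which was not tested. Set against the single knockdowns directly, RB1 was lower in triple KD by a log2 fold change of -1.19 than in SAFB1 KD (adjusted p = 2.62e-42) and of -1.35 than in SLTM KD (adjusted p = 1.7e-45). RB1 was also lower in SAFB1 KD than in SLTM KD (log2 fold change -0.17, adjusted p = 2.24e-06).

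RB1 is a long gene. The canonical transcript of 27 exons runs over 178.1 kb of the plus strand (chr13:48303751-48481890, GRCh38), while the gene record with longer isoforms ends at 48599436. Its longest intron, intron 17, spans 71.5 kb. The deposited values are counts over the whole gene, so they do not separate exons before a transposable element from exons after it.

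The neighbours of RB1 on chromosome 13 did not all move with it. Of 11 genes listed for the locus, 9 were tested, 2 rose and 4 fell in triple KD. Over all genes tested, 19.4% were called higher and 20.9% lower. FNDC3A, which starts 494 kb past the canonical end of RB1, averaged 44.8 ± 0.843 CPM in triple KD and 110 ± 0.265 CPM in control (SD, n = 3 each; log2 fold change -1.29, adjusted p = 7.22e-45). RCBTB2, on the minus strand 7.07 kb past that end, averaged 7.37 CPM in triple KD and 10.4 CPM in control (log2 fold change -0.50, adjusted p = 8.41e-11). Upstream, ITM2B (0.24) and MED4, a Mediator subunit (0.47), rose, and SUCLA2 (-0.13) fell, each with an adjusted p under the threshold. LPAR6, a receptor gene inside intron 17 on the opposite strand, had 0.178 CPM in triple KD and 0.0815 CPM in control and was not called (adjusted p = 0.104). A small RNA gene on the RB1 strand within RB1, listed as Metazoa_SRP (ENSG00000277233), had 0.0631 to 0.105 CPM in the triple KD libraries and at most 0.016 CPM in any other. These are levels of a few reads with no test, and the gene belongs to a repeated family, for which reads that fit several places were not counted. RB1-DT, the divergent transcript at the RB1 promoter, was near 0 as well, at 0.0569 CPM in triple KD and 0.107 CPM in control (adjusted p = 0.262), as was CYSLTR2 at 0.0169 CPM in triple KD and 0.0106 CPM in control (adjusted p = 0.774). PPP1R26P1, a pseudogene within RB1, had 0 counts in all 12 libraries, which allows up to 0.0532 CPM in the shallowest of them, for counting error only.

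The other pocket proteins did not fall. RBL1 stood at 48.7, 49.7 and 48.4 CPM in triple KD, 46.1, 44.9 and 42.7 CPM in SAFB1 KD, 47.9, 47.6 and 43.6 CPM in SLTM KD, and 47.6, 46.4 and 46 CPM in control. The triple KD libraries were all above control, yet the log2 fold change of 0.07 (SE 0.0332) was not called (adjusted p = 0.0948). Upper-quartile scaling (0.10, adjusted p = 0.00803), the edgeR expression filter (0.08, adjusted p = 0.0383) and a fit of those 6 libraries alone (0.07, adjusted p = 0.0312) did call it, within a range of adjusted p = 0.00803 to 0.259 over 20 alternatives. Against SAFB1 KD, RBL1 was higher in triple KD by 0.13 (adjusted p = 0.000832). RBL2 rose slightly. It averaged 119 ± 2.66 CPM in triple KD, 110 ± 2.2 CPM in SAFB1 KD, 113 ± 2.61 CPM in SLTM KD and 111 ± 2.91 CPM in control (SD, n = 3 each), a log2 fold change of 0.11 in triple KD (SE 0.0251, adjusted p = 0.000188). AKTIP, which overlaps the 3′ end of RBL2 on the opposite strand, averaged 27.4 CPM in triple KD and 29.8 CPM in control.

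The make-up of the pocket protein transcripts differed in triple KD. Per kb of exon, taken as the union of annotated exons, RB1 stood at 8.46 CPM per kb in triple KD and 22.6 in control, RBL1 at 8.22 in triple KD and 7.84 in control, and RBL2 at 14.7 in triple KD and 13.7 in control. RB1 made up 26.9% ± 0.551 of the summed level in triple KD, 47.7% ± 0.503 under SAFB1 KD, 49.9% ± 0.416 under SLTM KD and 51.3% ± 0.473 in control (SD, n = 3 each). The sum itself was 31.4 CPM per kb in triple KD, 40.3 under SAFB1 KD, 43.3 under SLTM KD and 44.1 in control. RBL2 thus had the highest level per length of the 3 genes in triple KD, and RB1 had the highest in the other groups. With the longest transcript as the length, RB1 made up 29.4% in triple KD and 54.3% in control. These lengths come from a later annotation than the counts. A level per length also takes reads as spread evenly over the exons, which counts over the whole gene cannot show.

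E2F2, an activator E2F, was the member that rose most. Its libraries stood at 55.4, 57.1 and 51 CPM in triple KD, 32.2, 33 and 32 CPM in SAFB1 KD, 32.6, 32.2 and 32.7 CPM in SLTM KD, and 31.5, 31.3 and 31.3 CPM in control. All triple KD libraries were far above the rest, and the single knockdowns, though above every control library, averaged 103% of control in SAFB1 KD and 104% in SLTM KD. The log2 fold change was 0.80 in triple KD (SE 0.0347, adjusted p = 4.1e-29, 174% of the control mean), against 0.05 in SAFB1 KD (adjusted p = 0.513) and 0.05 in SLTM KD (adjusted p = 0.477). It lay 0.70 beyond the sum of the single knockdowns (SE 0.0509, adjusted p = 8.29e-18).

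The remaining E2F members changed little. E2F1, also an activator, was at 109, 108 and 111 CPM in triple KD and 112 CPM in each control library, a log2 fold change of -0.03 that was not called (SE 0.0245, adjusted p = 0.325). E2F3, the third activator, stood at 94, 95 and 91.7 CPM in triple KD and 86.4, 85 and 85.7 CPM in control, without overlap, and rose by 0.13 (SE 0.0264, adjusted p = 5.03e-05). E2F3 averaged 84.8 CPM in SAFB1 KD and 81.3 CPM in SLTM KD, neither called. The SLTM KD value (-0.08, adjusted p = 0.0658) was called without SAFB1 KD replicate 1 (adjusted p = 0.0426), SLTM KD replicate 1 (adjusted p = 0.0364) or triple KD replicate 1 (adjusted p = 0.0492), and over 20 alternatives ran from adjusted p = 0.0192 to 0.225. E2F4, the main partner of RBL1 and RBL2, averaged 109 CPM in triple KD, 110 CPM in SAFB1 KD, 104 CPM in SLTM KD and 104 CPM in control. It was called higher in triple KD (0.07, adjusted p = 0.0153) and in SAFB1 KD (0.08, adjusted p = 0.0256), and the triple KD call was lost without control replicate 3 (0.06, adjusted p = 0.0803) and without a filter on low counts (0.06, adjusted p = 0.0546), where 20 alternatives ran from adjusted p = 0.000353 to 0.0803. The SAFB1 KD call was lost without that filter (adjusted p = 0.0809) and when control replicate 1, 2 or 3, SAFB1 KD replicate 1 or 2, or triple KD replicate 1 or 2 was left out (adjusted p = 0.0668 to 0.211), so these small shifts rest on the choice of libraries. Of the annotated processed pseudogenes, E2F3P2 averaged 0.174 CPM in triple KD and 0.0391 CPM in control, and E2F3P1 and E2F4P1 had 0 counts in these groups.

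**Figure D2:**
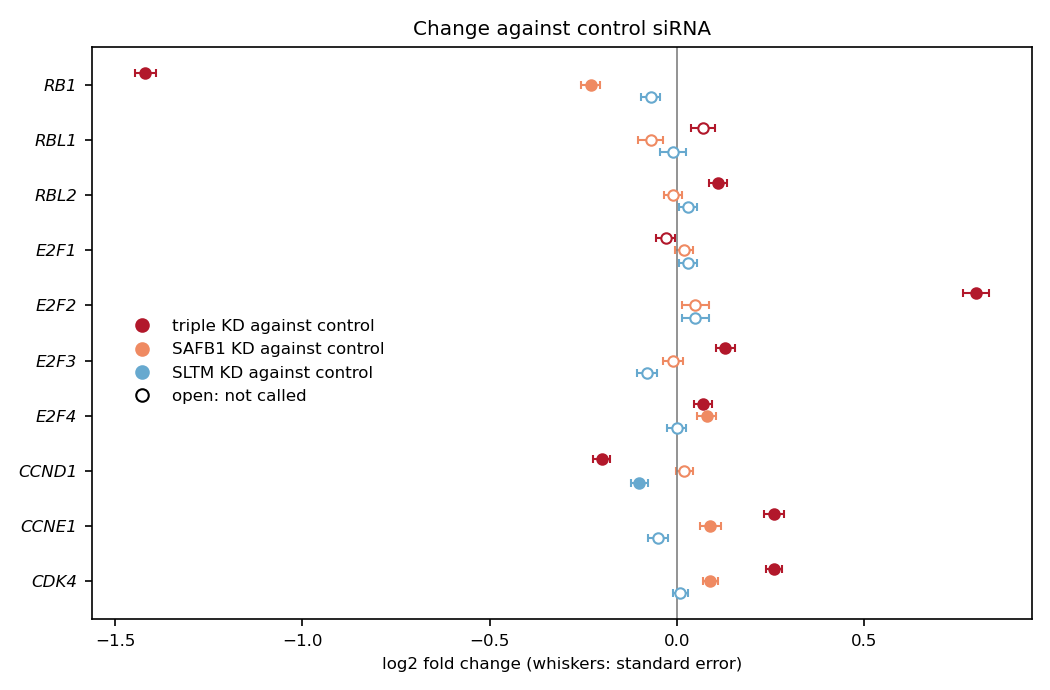
Log2 fold change against control (x axis, whiskers are SE) of each member (y axis) in triple KD (dark red), SAFB1 KD (orange) and SLTM KD (blue), with filled points for calls at an adjusted p under 0.05. RB1 (-1.42) and E2F2 (0.80) in triple KD stand apart, and all other points lie between -0.23 and 0.26.

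Across all 8 E2F genes, E2F5 moved most and in the direction of RB1. E2F5, a partner of RBL1 and RBL2, averaged 7.75 ± 0.458 CPM in triple KD, 14.7 ± 0.499 CPM in SAFB1 KD, 17.8 ± 0.388 CPM in SLTM KD and 19.1 ± 0.918 CPM in control (SD, n = 3 each). It fell by 1.30 on the log2 scale in triple KD (adjusted p = 1.91e-30) and by 0.37 in SAFB1 KD (adjusted p = 1.78e-08). The atypical repressors E2F8 (0.33, adjusted p = 4.99e-10) and E2F7 (0.24, adjusted p = 1.62e-11) rose in triple KD. Among the 6 tested genes listed as other E2F and DP factors, 4 rose and 1 fell in triple KD, with a median of 0.10, against a median of 0 over all genes tested. Of all genes tested, 19.4% were called higher and 20.9% lower. Per kb of exon, E2F1 had the highest level of the E2F genes in every group, at 40.6 CPM per kb in triple KD and 41.6 in control, followed by E2F4 at 30.4 in triple KD and 28.9 in control. With the longest transcript as the length, E2F4 was level with E2F1, at 41.7 and 40.6 CPM per kb in triple KD and 39.7 and 41.6 in control. E2F2 made up 10.1% ± 0.566 of the summed E2F1 to E2F4 level per kb in triple KD, 6.25% ± 0.0749 under SAFB1 KD, 6.42% ± 0.126 under SLTM KD and 6.19% ± 0.0216 in control (SD, n = 3 each).

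Promoters of several E2F genes are themselves known E2F targets, so the promoter windows of the members were searched for the E2F words TTTGGCGC and TTTCGCGC on both strands. The windows run from 250 bases before to 50 after each start (RefSeq, GRCh38.p14), and for RB1 the window was read at the canonical start. Of 11 windows for 9 of the members, those of RBL1, E2F1 and E2F2 held a word, against 1.15% of 35116 promoters. CCND1 had no window. Only these exact words were searched, so a window without a word may still hold another form of E2F site. The 40 bases around the first word are shown for these 3 genes, with the word in capitals.
RBL1 (chr20:37096000-37096039, minus strand): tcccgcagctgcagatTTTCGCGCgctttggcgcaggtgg
E2F1 (chr20:33686382-33686421, minus strand): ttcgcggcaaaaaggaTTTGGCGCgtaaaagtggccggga
E2F2 (chr1:23531252-23531291, minus strand): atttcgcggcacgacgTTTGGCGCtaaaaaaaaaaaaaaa
RBL1 holds a further word, TTTGGCGC, in the same 40 bases. Of these genes E2F2 rose in triple KD, and E2F1 and RBL1 were not called, although 3 alternatives called RBL1 higher. Whether these words bear on the changes was not tested.

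Among the G1 regulators, CDK4 and CCNE1 rose and CCND1 fell in triple KD. CDK4, the catalytic partner of D-type cyclins, stood at 283, 277 and 274 CPM in triple KD, 242, 247 and 249 CPM in SAFB1 KD, 232, 231 and 237 CPM in SLTM KD, and 227, 232 and 235 CPM in control. The levels of SAFB1 KD lay between those of triple KD and control without overlap, with log2 fold changes of 0.26 in triple KD (SE 0.0207, adjusted p = 3.53e-17) and 0.09 in SAFB1 KD (SE 0.0208, adjusted p = 0.00222). CCNE1, the S-phase entry cyclin, stood at 83.3, 82 and 82 CPM in triple KD, 71.2, 74.3 and 74.1 CPM in SAFB1 KD, 65.6, 66.5 and 67.3 CPM in SLTM KD, and 69.7, 69 and 68 CPM in control. It rose by 0.26 in triple KD (SE 0.0267, adjusted p = 1.07e-12). The smaller rise in SAFB1 KD (0.09, adjusted p = 0.0252) was lost without a filter on low counts (adjusted p = 0.0851) and when control replicate 2 or 3, SAFB1 KD replicate 2 or 3, or triple KD replicate 1 or 2 was left out (adjusted p = 0.0595 to 0.201). CCND1, the main D-type cyclin of this line, stood at 144, 142 and 138 CPM in triple KD, 166, 165 and 160 CPM in SAFB1 KD, 151, 153 and 149 CPM in SLTM KD, and 164, 161 and 160 CPM in control. It fell in triple KD (log2 fold change -0.20, SE 0.0228, adjusted p = 5.87e-11) and in SLTM KD (-0.10, SE 0.0228, adjusted p = 0.00188), the only member called in SLTM KD, while SAFB1 KD overlapped control. CCND1 overlaps LTO1 at its 3′ end on the opposite strand, where the counting used strand, and LTO1 averaged 16.8 CPM in triple KD and 17.2 CPM in control.

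The make-up of the D-type cyclins differed in triple KD too. CCND3 averaged 57.1 ± 1.45 CPM in triple KD, 25 ± 0.184 CPM in SAFB1 KD, 24.2 ± 1.23 CPM in SLTM KD and 23.1 ± 0.759 CPM in control (SD, n = 3 each), a log2 fold change of 1.30 in triple KD (adjusted p = 3.31e-39). Per kb of exon it made up 20.2% of the summed D-type cyclin level in triple KD and 8.55% in control, while CCND1 made up 60.4% in triple KD and 72.2% in control. With the longest transcript as the length, CCND3 made up 35% in triple KD and 16.6% in control, and CCND1 48.8% in triple KD and 65.4% in control. CDK6, the other kinase of D-type cyclins, fell in triple KD (log2 fold change -0.51, adjusted p = 2.39e-20), SAFB1 KD (-0.21, adjusted p = 5.01e-06) and SLTM KD (-0.12, adjusted p = 0.0123). Its share of the summed CDK4 and CDK6 level per kb was 5.81% in triple KD and 9.57% in control, or 3.75% in triple KD and 6.28% in control by longest transcript. CDC25A, the phosphatase that activates CDK2, averaged 93 CPM in triple KD, 150 CPM in SAFB1 KD, 154 CPM in SLTM KD and 152 CPM in control, with a log2 fold change of -0.71 in triple KD (adjusted p = 7.4e-35).

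**Figure D3:**
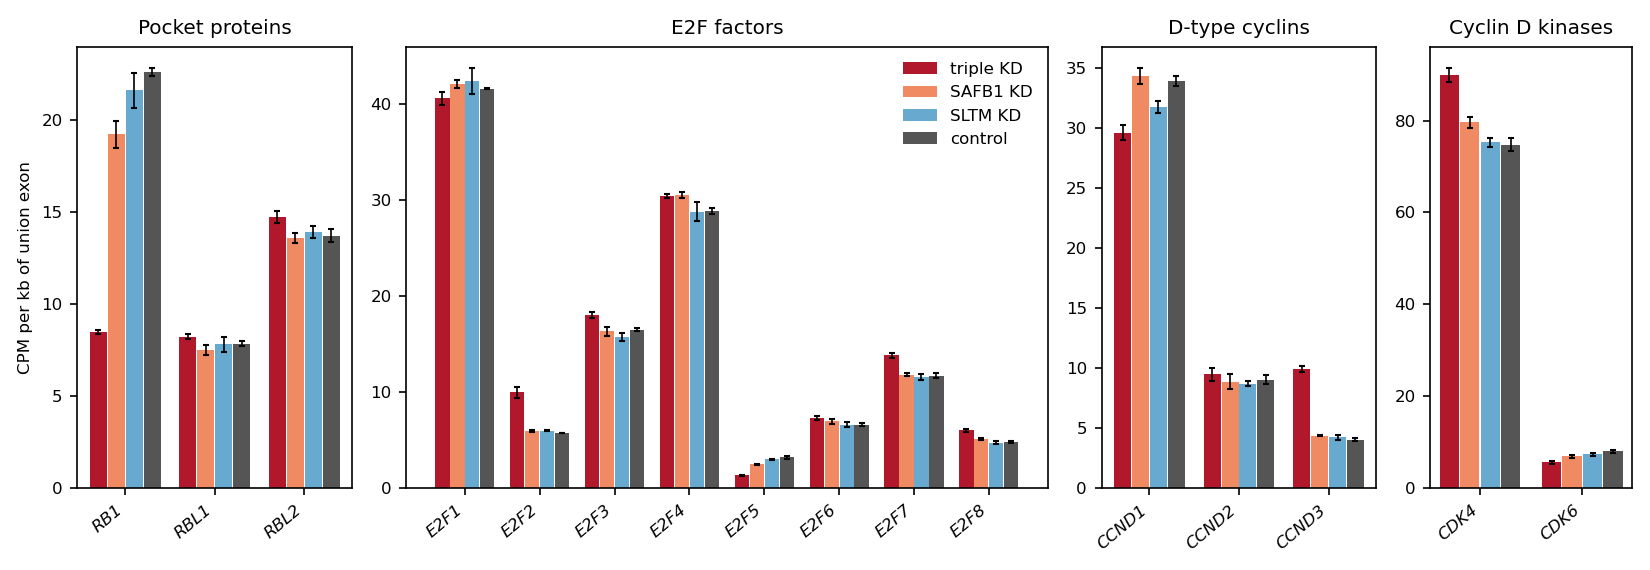
Mean CPM per kb of union exon (y axis, from 0; whiskers are SD of 3 libraries) for pocket proteins, E2F factors, D-type cyclins and their kinases in triple KD, SAFB1 KD, SLTM KD and control (left to right). On this length, RB1 and RBL1 stand at 8.46 and 8.22 CPM per kb in triple KD, and CCND3 and CCND2 at 9.91 and 9.47. By longest transcript the members of each pair stand further apart, RB1 at 11.4 and RBL1 at 8.61, and CCND3 at 23.9 and CCND2 at 11.

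Counted together, 8 of the 10 members were called in triple KD, 6 higher and 2 lower, where 40.3% of all genes tested were called (19.4% higher and 20.9% lower). Their median absolute log2 fold change was 0.16, against 0.27 over all genes tested. Genes tested needed only 10 counts summed over the libraries, whereas each member had at least 1807 in every library. Shares and medians among genes of matched level were not computed. Only RB1 passed a test for more than 2-fold (adjusted p = 3.59e-20), which 0.955% of genes passed. In SAFB1 KD 4 members were called, RB1 lower and E2F4, CCNE1 and CDK4 higher, against 9.66% of genes. In SLTM KD 1 member was called, against 9.26% of genes, of which 962 were higher and 1509 lower, or 1552 higher and 1146 lower with upper-quartile scaling. Triple KD differed from SAFB1 KD in 8 members (34.9% of genes) and from SLTM KD in 8 (36.3% of genes), and SAFB1 KD differed from SLTM KD in 5 (16% of genes). The departure from the sum of the single knockdowns was called for 7 members (21.4% of genes), RB1 and CCND1 lower and RBL1, E2F2, E2F3, CCNE1 and CDK4 higher. Of these, RBL1 (0.14, adjusted p = 0.023) lost the call in the fits that left out replicate 1 of control (adjusted p = 0.0614), replicate 3 of SAFB1 KD (adjusted p = 0.092) or replicate 3 of SLTM KD (adjusted p = 0.0719). CCND1 (-0.12, adjusted p = 0.00525) lost it in those that left out replicate 3 of control (adjusted p = 0.0513), replicate 1 of SAFB1 KD (adjusted p = 0.0634) or replicate 2 of SLTM KD (adjusted p = 0.0531). RBL2 missed it (0.09, adjusted p = 0.0526), but was called in 13 of the 19 alternatives run (adjusted p = 0.00716 to 0.0492 in those), among them DESeq2 (adjusted p = 0.0411), the fit with no filter on low counts (adjusted p = 0.0255) and 7 fits that left out 1 library. The 3 comparisons with control share the control libraries.

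CDK inhibitor genes mostly rose in triple KD. Of 7 CDK inhibitors 5 rose and 1 fell, with a median log2 fold change of 0.37. This count, and those of the lists below, stand beside 19.4% of all genes tested called higher and 20.9% lower in triple KD. CDKN2A, whose products include the CDK4 inhibitor p16, averaged 290 ± 8.26 CPM in triple KD and 232 ± 1.94 CPM in SAFB1 KD. It averaged 208 ± 7.07 CPM in SLTM KD and 205 ± 10.2 CPM in control (SD, n = 3 each). Counts over the whole gene do not separate p16 transcripts from other CDKN2A transcripts. The log2 fold change of CDKN2A was 0.50 in triple KD (adjusted p = 1.64e-26). CDKN2C (p18, 0.46, adjusted p = 9.08e-24) and CDKN1A (p21, 0.46, adjusted p = 2.22e-21) rose too, and both were also called higher in SAFB1 KD. Of 8 DREAM and MuvB genes 4 rose and 1 fell, among them DYRK1A, the kinase that promotes DREAM assembly (0.29), FOXM1 (0.14) and the MuvB subunit LIN9 (-0.18). Of 13 corepressors and degradation partners of RB1, 8 rose and 4 fell. RBBP7, a histone chaperone named for RB1 binding, averaged 473 CPM in triple KD and 645 CPM in control (log2 fold change -0.45, adjusted p = 1.58e-30). MDM2, a ubiquitin ligase that can act on RB1, had a log2 fold change of -0.54 (adjusted p = 1.02e-27), and SMARCA4, the ATPase of the SWI/SNF complex, 0.24 (adjusted p = 2.28e-17).

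The E2F target genes as a list did not move one way. Of 30 genes, most of them of DNA replication and nucleotide synthesis, 11 rose, 10 fell and 9 were not called in triple KD. The median log2 fold change of the list was 0.01. With upper-quartile scaling the split was 13 higher and 6 lower. RRM2, a ribonucleotide reductase subunit, fell most, to 112 ± 4.41 CPM in triple KD, against 163 ± 2.6 CPM in control (SD, n = 3 each; log2 fold change -0.54, adjusted p = 2.64e-26), and was also lower in SAFB1 KD (-0.33) and SLTM KD (-0.14). HELLS, a chromatin remodeller, fell in triple KD as well (-0.27, adjusted p = 1.47e-14). In SAFB1 KD 6 of the 30 rose and 3 fell, and in SLTM KD 2 rose and 3 fell. Of all genes tested, 9.66% were called in SAFB1 KD and 9.26% in SLTM KD.

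**Figure D4:**
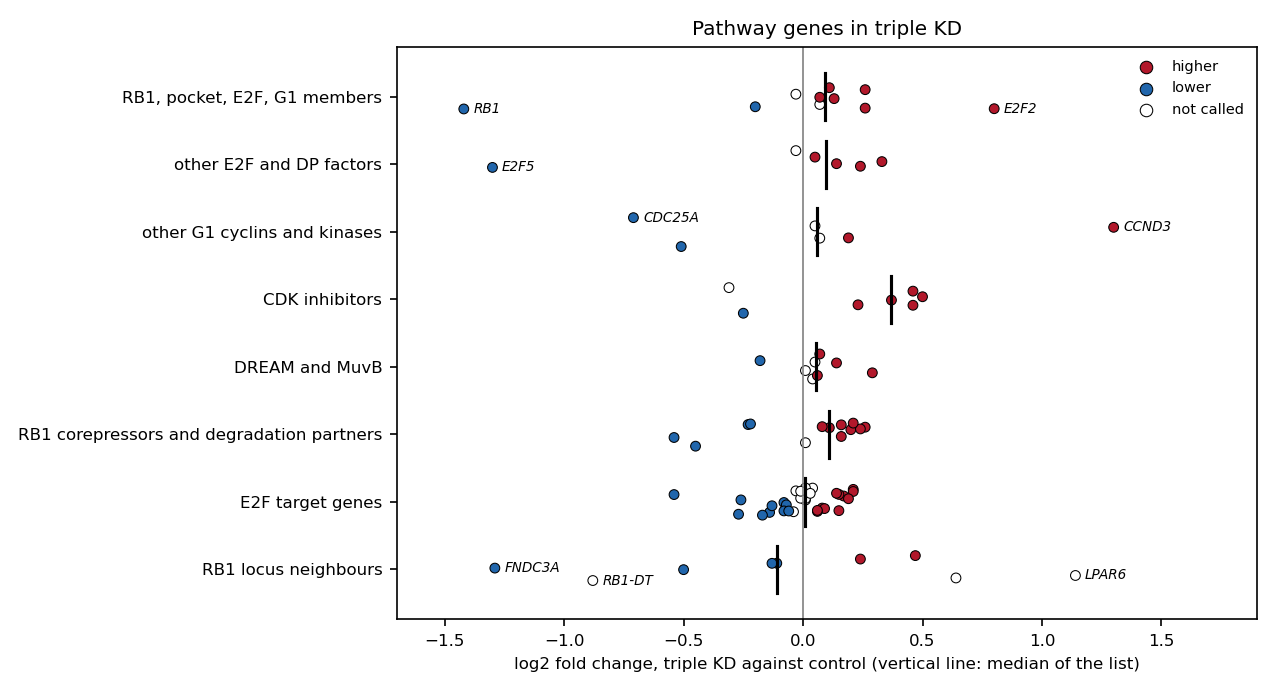
Change between triple KD and control (x axis, log2 fold change) for the tested genes in 8 lists (y axis), red where called higher, blue where called lower and white where not called, with a vertical line at each list's median. CDK inhibitors have a median of 0.37 and E2F target genes of 0.01.

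The genes whose levels followed RB1 most closely over the 12 libraries were CCDC6, UBE2G2, TMEM222, SEMA3E and ZNF37A, ranked by Euclidean distance of log2 CPM centred on the control mean among 13704 genes. CCDC6, the nearest (distance 0.232), averaged 42.9 CPM in triple KD, 90.2 CPM in SAFB1 KD, 103 CPM in SLTM KD and 106 CPM in control. UBE2G2, a ubiquitin-conjugating enzyme gene (0.254), averaged 104 CPM in triple KD, 254 CPM in SAFB1 KD, 264 CPM in SLTM KD and 276 CPM in control. These 5 genes lie on chromosomes 10, 21, 1, 7 and 10, none on that of RB1.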

How the data were processed

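Per the labels and the study's methods, the authors trimmed reads, aligned them to GRCh38 with STAR 2.7.9a (submitters' processing notes) using GENCODE gene models, and deposited raw counts per gene on the reverse strand, made from uniquely placed reads, with a file for each library. Reads that fit several places are absent, which bears on genes with near-identical copies. Groups came from sample titles. A later GENCODE release on GRCh38 gave positions and lengths for 99% of 58780 IDs.

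Counts from 12 libraries (56856228 to 75533510 each) were fitted in 1 model with edgeR 4.0.16 (TMM factors, quasi-likelihood test, R 4.3.3). Genes with 10 or more counts over the libraries were tested (26688), with Benjamini-Hochberg adjustment over all of them and calls at 0.05, and glmTreat tested for changes over 2-fold. CPM used TMM-adjusted totals. P-values measure the spread between these libraries. The fit was tested on simulated data. DESeq2 1.42.0, limma-voom (limma 3.58.1), other scalings and filters, a replicate block and leaving out libraries were the alternatives. The members and lists were chosen with earlier results of these data known. All members are named, with up to 3 genes of each other pathway list (smallest adjusted p in triple KD), the genes of the RB1 locus and the 5 genes nearest RB1. CCND2 and the named marker genes were chosen after their values were seen. LINC00441 was listed for the locus and had no row under that symbol. Some listed genes, and the position and sequence of the element in RB1, are not reported here.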

Additional observations from a re-analysis of the deposited data

How the results depend on the processing

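No member that was called reversed its direction under any alternative run, and of 1390 values of a member under an alternative, 1323 stayed on their side of the threshold, 29 lost a call and 38 gained one. Without a filter on low counts, 2 members were called in SAFB1 KD (of 2364 genes called in all) and 3 in SLTM KD (of 2515). Deviations from the group mean correlated weakly between same-numbered libraries of different groups (-0.025 to 0.139, median 0.0503). Pairs with different numbers ran from -0.111 to 0.0636 (median -0.0273). These ranges overlapped, though the median was higher for same-numbered libraries. Any structure that equal numbers share was not modelled in the main fit. What equal numbers share is not given in the labels. With the number as a replicate block, 3 members were called in SLTM KD (of 3172 genes), RB1 and E2F3 (adjusted p = 0.0192) being added to CCND1. Leaving out 1 library at a time gave 7 to 8 members called in triple KD, 2 to 4 in SAFB1 KD (2 without control replicate 2 or 3, SAFB1 KD replicate 2, or either of replicates 1 and 2 of triple KD), and 1 to 2 in SLTM KD (2 without SAFB1 KD replicate 1, SLTM KD replicate 1, SLTM KD replicate 2 or triple KD replicate 1). Over all genes it gave 9759 to 10902 calls in triple KD, 1706 to 2723 in SAFB1 KD, the lowest without SAFB1 KD replicate 2, and 1756 to 2628 in SLTM KD. The cause of these moves was not tested. No called gene of the pathway lists changed sign under the scalings, filters or tools run. At this depth, the RB1 locus genes near 0 CPM rest on few reads.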
